A study of Homo sapiens with 3 samples.

Results

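Broad H3K4me3 domains are described here as the 500 widest H3K4me3 peaks on chromosomes 1 to 22 of HCC1599, an established cell line from a triple-negative breast cancer, out of 31074 autosomal H3K4me3 peaks. They were chosen by peak width alone, which ran from 38262 bp down to 7394 bp, with a median of 8661.5 bp (interquartile range 7880 to 10413.75). They made up 1.61% of the peaks and 7.06% of the bases under them. The series held 3 samples of this 1 line: chromatin precipitated with an antibody to H3K4me3, chromatin precipitated with an antibody to H3K27ac, and an input without antibody. The series title calls the cancer MARCO-TST positive, without spelling out that name, and no treatment is given. With 1 library per mark, nothing below could be checked between replicates, and p-values are left out. Intervals in brackets after a share are exact 95% binomial intervals over peaks, which cover counting error only. Peak lists give no read depth, and a base outside peaks is a base where none was called.

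H3K4me3 is written on nucleosomes at promoters, mostly CpG-rich ones, by methyltransferases of the SET1 and MLL complexes. H3K27ac is written by the acetyltransferases p300 and CBP at active promoters and enhancers. At most promoters H3K4me3 forms a narrow band around the start of the gene. A small class of promoters carries it over a much longer stretch, and in other cell types such broad domains have been described at genes of cell identity, at tumour suppressors and at genes with steady, high transcription.

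The label of the line was set against marker genes. Of 10 breast epithelial marker genes 9 had both marks at a start, and of 12 basal or luminal progenitor markers 7 did. Both marks were at the start of 0 of 8 fibroblast, 1 of 9 macrophage, 1 of 10 lymphocyte and 0 of 6 endothelial markers. The epithelial genes KRT19, CLDN4, ELF3 and EHF and the basal or progenitor genes KRT5, SOX9, EN1, PROM1 and ALDH1A3 had a start inside a domain.

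Promoter sequences are given for 6 domains because the results turn on a contrast between 2 lists of genes. FOXC1, TFAP2A and RUNX1 encode transcription factors of the mammary epithelium and had the widest domains of that kind beyond the 15 widest of all. SRSF3, HNRNPF and NPM1 encode proteins of the splicing and RNA-binding list. HNRNPF, with 88.9% cover, is an exception to the low cover of most domains of that list. RNA-binding protein genes outside the list went both ways, with 98.96% cover at IGF2BP3, 100% at ZFP36L2 and 39.5% at YBX1. Each sequence is RefSeq's on GRCh38.p14, from 250 bases before to 50 bases after the most upstream annotated start in the domain, 5′ to 3′ on the gene's strand. Capitals mark matches, on either strand, to short motifs: the GC box, with the letters GGGCGG; the CCAAT box; the TATA box, searched as TATAAA; the core of ETS factor sites, searched as CCGGAAG; the AP-1 site, searched as TGANTCA; the E-box, with the letters CACGTG; the AP-2 site, searched as GCCNNNGGC; and the NRF1 core.
FOXC1 promoter, chr6:1609665-1609964, plus strand: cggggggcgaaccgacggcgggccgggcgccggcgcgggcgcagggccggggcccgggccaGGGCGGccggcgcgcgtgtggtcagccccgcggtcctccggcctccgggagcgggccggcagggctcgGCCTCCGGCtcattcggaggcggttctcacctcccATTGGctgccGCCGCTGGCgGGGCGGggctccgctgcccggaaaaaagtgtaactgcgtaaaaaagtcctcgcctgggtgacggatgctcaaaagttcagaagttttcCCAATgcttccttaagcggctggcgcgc
TFAP2A promoter, chr6:10419610-10419909, minus strand: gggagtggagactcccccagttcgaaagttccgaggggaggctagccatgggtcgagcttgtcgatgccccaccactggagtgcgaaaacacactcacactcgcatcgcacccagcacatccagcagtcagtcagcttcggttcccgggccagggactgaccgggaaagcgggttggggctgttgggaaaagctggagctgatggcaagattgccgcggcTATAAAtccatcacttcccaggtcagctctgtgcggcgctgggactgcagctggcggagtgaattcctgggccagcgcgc
RUNX1 promoter, chr21:34888650-34888949, minus strand: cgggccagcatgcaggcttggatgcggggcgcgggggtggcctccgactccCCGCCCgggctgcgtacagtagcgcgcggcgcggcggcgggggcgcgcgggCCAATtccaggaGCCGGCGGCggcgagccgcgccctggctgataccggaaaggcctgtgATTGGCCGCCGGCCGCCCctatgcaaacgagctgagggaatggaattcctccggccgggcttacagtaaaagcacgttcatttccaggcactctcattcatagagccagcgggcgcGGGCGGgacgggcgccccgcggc
SRSF3 promoter, chr6:36594112-36594411, plus strand: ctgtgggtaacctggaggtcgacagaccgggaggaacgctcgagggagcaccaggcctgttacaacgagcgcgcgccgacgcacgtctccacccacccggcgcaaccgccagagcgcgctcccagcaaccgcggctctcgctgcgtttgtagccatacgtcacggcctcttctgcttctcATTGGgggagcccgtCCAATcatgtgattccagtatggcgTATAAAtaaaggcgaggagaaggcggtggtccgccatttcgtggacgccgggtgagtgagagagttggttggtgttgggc
HNRNPF promoter, chr10:43408808-43409107, minus strand: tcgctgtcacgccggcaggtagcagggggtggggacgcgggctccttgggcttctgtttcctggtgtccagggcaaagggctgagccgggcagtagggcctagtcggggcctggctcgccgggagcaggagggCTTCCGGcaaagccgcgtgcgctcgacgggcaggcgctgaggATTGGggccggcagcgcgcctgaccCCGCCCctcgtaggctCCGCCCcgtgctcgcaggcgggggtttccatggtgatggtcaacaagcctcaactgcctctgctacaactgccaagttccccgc
NPM1 promoter, chr5:171386866-171387165, plus strand: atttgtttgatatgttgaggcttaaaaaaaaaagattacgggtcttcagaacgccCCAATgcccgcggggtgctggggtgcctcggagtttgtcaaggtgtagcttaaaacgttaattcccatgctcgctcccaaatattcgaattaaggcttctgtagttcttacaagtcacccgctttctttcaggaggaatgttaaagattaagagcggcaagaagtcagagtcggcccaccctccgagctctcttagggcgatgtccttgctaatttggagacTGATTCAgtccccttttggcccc

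FOXC1 and RUNX1 had 40 CpG dinucleotides each in these 300 bases, TFAP2A 18, SRSF3 30, HNRNPF 26 and NPM1 13. TATAAA was found in TFAP2A and in SRSF3. CCAAT was found in all of them but TFAP2A. Over the 649 annotated coding starts inside domains, outside chromosome 8 for which no sequence was used, the median GC content was 65.3%, against 65.7% for the 631 starts in the next 500 widest H3K4me3 peaks, 66.3% for the 12657 starts in other H3K4me3 peaks and 52.0% for the 7218 starts in none. The median ratio of observed to expected CpG was 0.83 in domains, 0.87 in the next 500, 0.84 in other peaks and 0.27 outside peaks. By list, this ratio was 0.774 over the 24 domain starts of epithelial factors (12 genes). It was 0.996 over the 18 domain starts of splicing and RNA-binding genes (14 genes). The median GC content of these starts was 64.3% and 64.5%. The CpG counts of the printed promoters therefore do not stand for their lists.

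CCAAT was in 36.4% of domain starts, 36.1% of starts in the next 500, 33.8% of starts in other peaks and 34.4% of all 21155 starts. TATAAA was in 10.5% of domain starts, 7.77% in the next 500, 4.74% in other peaks and 9.51% of all starts. AP-1 letters were in 7.09% of domain starts, 3.96% in the next 500, 3.85% in other peaks and 6.08% of all starts. The ETS core was less frequent, in 11.2% of domain starts, 21.1% in the next 500, 18.1% in other peaks and 12.9% of all starts. GGGCGG was in 66.3% of domain starts, 71.8% in the next 500, 72.5% in other peaks and 56.6% of all starts. The NRF1 core was in 8.47%, 10.9%, 10.7% and 7.43% of these same sets, CACGTG in 8.17%, 9.83%, 9.87% and 8.25%, and GCCNNNGGC, which can overlap a GC box, in 28.7%, 31.7%, 33.5% and 27.6%. Starts of 1 gene share sequence, these shares were not tested, and a match is a run of letters, not a bound site.

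H3K27ac was called over most of the sequence of the broad domains. Of their 4.89 Mb, 85.7% lay inside H3K27ac peaks, against 76.5% of the 3.39 Mb in the next 500 widest H3K4me3 peaks and 59.2% of the 64.4 Mb in all other autosomal H3K4me3 peaks, a set that includes the next 500. The median domain was 91.5% covered (88.9 to 93.4; quartiles 73.1 and 99.3), the median of the next 500 was 80.1% (77.5 to 82.4; quartiles 62.9 and 92.9), and the median of all other peaks was 61.2%. Each of the 500 domains touched an H3K27ac peak, so that the share without one was 0% with an upper limit of 0.735%. This compares with 71.4% of all autosomal H3K4me3 peaks that touched one, and 3 of the next 500 touched none. A wider peak has more room for an H3K27ac peak, so the share of bases is given beside the touch.

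Cover ran from 12.2% to 100%. At least 50% of the bases were covered in 472 domains (94.4%, 92.0 to 96.2), against 89.2% of the next 500 and 58.1% of all autosomal H3K4me3 peaks. At least 99% were covered in 129 domains (25.8%, 22.02 to 29.9), against 10.8% of the next 500 and 23.9% of all autosomal peaks, and 93 domains lay wholly inside H3K27ac. The 23.9% is made up mostly of narrow peaks away from coding starts. Among the 11616 other peaks with a coding start, which include those of the next 500, it was 4.42%, against 21.9% of the 448 domains with one. Below 75% cover there were 137 domains (27.4%, 23.5 to 31.5), against 42.0% of the next 500 and 59.1% of all autosomal peaks, and 28 of these domains were below 50%.

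**Figure D1:**
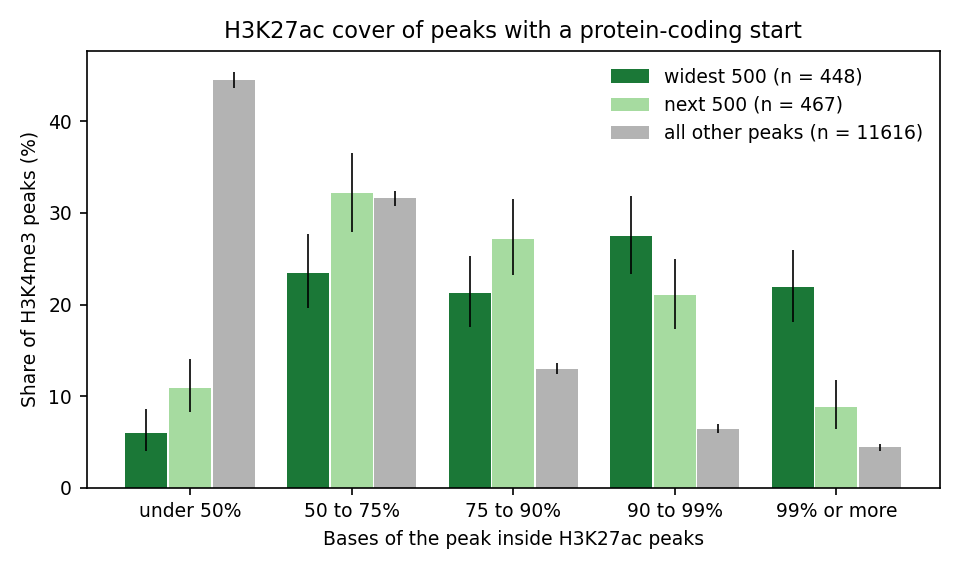
Share of H3K4me3 peaks with a protein-coding start (%, vertical axis) in each class of H3K27ac cover (horizontal axis). Bars are for the 448 such peaks among the widest 500, the 467 among the next 500 and all 11616 outside the widest 500, which include the 467. Lines are exact 95% binomial intervals. Cover of 99% or more held 21.9% of the widest, 8.78% of the next and 4.42% of the other peaks, and cover under 50% held 6.03%, 10.9% and 44.5%.

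Cover was highest in the widest of these domains. Among the 100 widest, of at least 10978 bp, the median cover was 97.9%, and 41 were covered by 99% or more while 12 were below 75%. Among the 100 narrowest of the 500, of 7394 to 7765 bp, the median was 79.3%, with 16 at 99% or more and 42 below 75%. The 3 groups of 100 between them had medians of 91.4%, 88.4% and 91.1%. Across the 500 domains, which come from 1 library and are not replicates, Spearman's rho between width and cover was 0.27.

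A single H3K27ac peak overlapped 245 domains and 3 or more overlapped 20.4% of domains, with a median of 2 and a maximum of 7. The widest H3K27ac peak at a domain had a median width of 7297.5 bp, against 4585.5 bp for the next 500, and in 180 domains it was wider than the domain itself, against 106 of the next 500. H3K27ac reached past both edges of 154 domains and stopped short of both edges in 135, against 84 and 209 of the next 500. The 50 kb on either side of a domain held a median of 7 further H3K27ac peaks (quartiles 4 and 10), of which 4 had no H3K4me3, against 6 and 3 for the next 500, with the same quartiles.

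The domains held the start of 585 protein-coding genes, 3.06% of the 19122 on the autosomes. A start was present in 448 domains (89.6%, 86.6 to 92.1), against 93.4% of the next 500 and 38.8% of all autosomal H3K4me3 peaks. Of the domains 332 held the start of 1 coding gene, 96 of 2 and 20 of 3 or more. Of the 52 without one, 28 held a start or end of a noncoding gene or pseudogene and 24 held neither. Genes at domains had a median length of 23779 bp, against 28944 bp for genes at the next 500 and 24490.5 bp for all coding genes, and 107 of the 585 lay whole inside their domain. On chromosome 8, and for other genes without a RefSeq promoter entry, both annotated ends counted in place of the start, which applied to 141 of the 585 genes.

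The 15 widest domains lie at genes such as ZNF217, EN1, NFIX and EHF, and the next 30 included further transcription factor genes. The domain at FOXC1, a forkhead factor of basal-like breast cells, was 17777 bp wide (chr6:1603118-1620894) and 100% covered by 1 H3K27ac peak of 18114 bp. The domain at TFAP2A, encoding an AP-2 factor of ectoderm and breast, was 17352 bp wide (chr6:10404425-10421776) and 99.4% covered. At ELF3, an epithelial ETS factor gene, 13602 bp (chr1:202005544-202019145) were 100% covered, and at IRX5, an Iroquois homeobox gene, 13721 bp were 97.5% covered. At RUNX1, encoding a core-binding factor subunit, 15443 bp (chr21:34876497-34891939) were 95.9% covered. The domain at HEY2, a transcriptional repressor and Notch target gene, was 16079 bp wide and 90.1% covered, and the one at VAX2, a homeobox gene known from the eye, was 15110 bp wide and 100% covered. All of these domains except those at TFAP2A and IRX5 were overlapped by a single H3K27ac peak.

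Genes of other roles, and further regulators, stood among the same 30. ANXA2, encoding the membrane-binding protein annexin A2, had 18134 bp (chr15:60382209-60400342) that were 100% covered, inside an H3K27ac peak of 33591 bp. DSP, encoding the desmosome protein desmoplakin, had 17212 bp with 96.3% cover, and NECTIN4, a cell adhesion gene, 12886 bp with 100% cover. NFE2L2, encoding the oxidative stress factor NRF2, had 16417 bp with 93.4% cover, AHR, encoding the aryl hydrocarbon receptor, 13118 bp with 87.5%, and IDH2, encoding mitochondrial isocitrate dehydrogenase, 14171 bp with 100%. RHPN2 had 16734 bp with 96.9% cover, ATL2 15297 bp with 99.3%, NRP2, a semaphorin co-receptor gene, 13637 bp with 97.8%, IGF2BP3, an mRNA-binding protein gene, 13998 bp with 98.96%, and KMT2E 13909 bp with 95.8%. NSD3 and LETM2 shared 14214 bp with 90.04% cover, and NDRG1, a stress and hypoxia response gene, had 12867 bp with 84.7%. The domain of 16806 bp inside LMNA, the lamin A and C gene, held no annotated start, lay 6850 bp from the nearest, and was 100% covered.

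Domains as wide as these could also be covered in part. At SRSF3, a splicing factor gene, 13176 bp (chr6:36592108-36605283) were 54.7% covered, by 1 H3K27ac peak of 7683 bp, and 5972 bp in 1 stretch were bare. HNRNPA2B1, an RNA-binding protein gene, shared 13236 bp with CBX3, a heterochromatin protein gene, and these were 71.4% covered in 5 pieces. PROM1, the luminal progenitor marker gene, had 13912 bp with 71.0% cover and a bare stretch of 4034 bp. RACK1, a ribosome-associated scaffold gene, had 13602 bp with 84.8% cover, and the ribosomal gene RPL7 and its neighbour RDH10 shared 13141 bp with 78.6%.

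**Figure D2:**
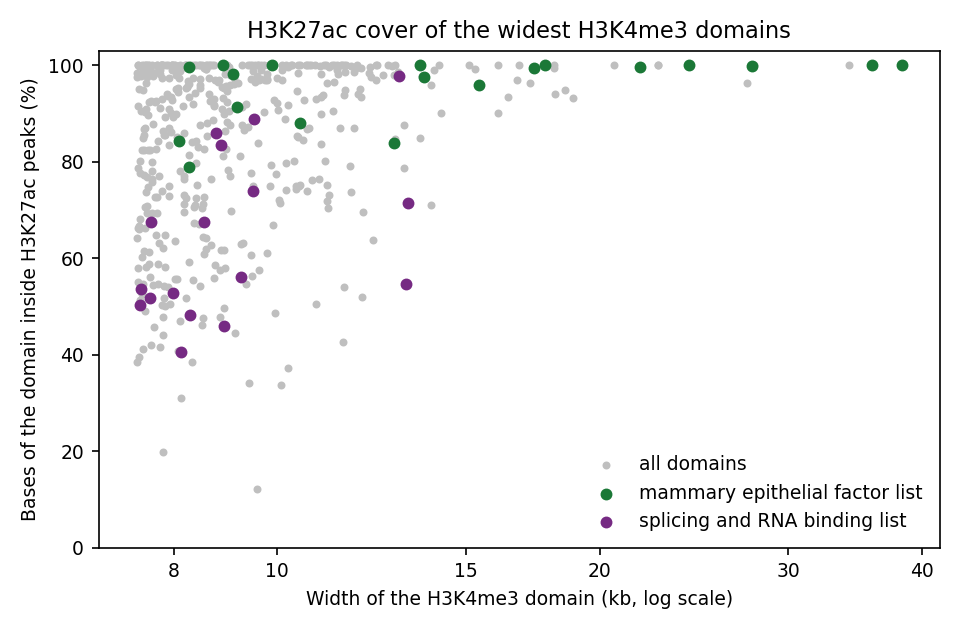
Each point is 1 of the 500 widest H3K4me3 peaks, by its width (kb, log scale, horizontal axis) and the share of its bases inside H3K27ac peaks (%, vertical axis); green points hold a gene of the mammary epithelial factor list and purple points one of the splicing and RNA binding list. The 19 green domains lie between 78.9 and 100% cover and the 17 purple ones between 40.7 and 97.7%.

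Of 42 transcription factor genes of the mammary epithelium on autosomes, 19 (45.2%) had a start in a domain, against 3.06% of all coding genes. This list and those below were chosen with earlier results of these data known, so their shares describe and do not test enrichment. H3K27ac covered most of the 19 domains nearly whole. The median cover of the 19 was 99.6%, against 91.5% for all 500 domains, with a lowest value of 78.9%, and 11 of the 19 were covered by 99% or more. TRPS1, a GATA-type repressor gene, EHF, an ETS factor gene, and NFIB, a nuclear factor I gene, had 27715, 24221 and 21826 bp with 99.8%, 100% and 99.7% cover. The grainyhead genes GRHL2 and GRHL3, regulators of epithelial integrity, had 9877 and 8903 bp and both were 100% covered. SOX9, a progenitor factor gene, had 8266 bp with 99.6% cover, and ID4, an inhibitor of helix-loop-helix factors, 9089 bp with 98.3%. TFAP2C and KLF5 had 9177 and 10500 bp with 91.4% and 88.1% cover. The lowest values were those of SOX4, BCL11A and SOX11, with 8088, 12845 and 8263 bp and 84.2%, 83.9% and 78.9% cover. A further 3 genes of this list, of 42 (7.14%), had a start in the next 500 widest peaks.

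Of 41 splicing and RNA-binding protein genes, 17 (41.5%) had a start in a domain, against 3.06% of all coding genes. Another 6 (14.6%) had one in the next 500 widest peaks, and all 41 had one in some H3K4me3 peak. At most of the 17 domains H3K27ac was narrower than H3K4me3. Their median cover was 56.2%, and 13 of the 17 were below 75%, against 137 of all 500. NCL, encoding nucleolin, had 8132 bp with 40.7% cover, NPM1, encoding nucleophosmin, 8912 bp with 46.0%, and HNRNPDL 8285 bp with 48.2%. RBM39, SRSF1, HNRNPD and HNRNPK had 7436, 7607, 7988 and 7454 bp with 50.3%, 51.7%, 52.7% and 53.7% cover. PABPC1, the poly(A)-binding protein gene, had 9258 bp with 56.2%. The exceptions were HNRNPU with 97.7%, HNRNPF with 88.9%, CLK1, a kinase gene of splicing factors, with 85.9%, and TRA2B with 83.5%. At 11 of the 17 domains the highest deposited H3K27ac score reached 3100, the value at which scores of both peak lists pile up. This was fewer than the 18 of the 19 domains of epithelial factors. The lowest of the 17 was 1013.58, at HNRNPC. The widest H3K27ac peak at the 17 domains had a median width of 3935 bp, and at the 19 domains 15777 bp. Of the 19 domains 11 were among the 100 widest, against 3 of the 17. These H3K27ac scores and widths were not compared at like H3K4me3 width.

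The difference between these lists was present among domains of like width. Leaving out the 100 widest domains, 8 domains of epithelial factors with a median width of 8996 bp had a median cover of 94.8% (range 78.9 to 100), and 14 domains of RNA-binding genes with a median width of 8409 bp had one of 55.0% (range 40.7 to 88.9). All 400 domains beyond the 100 widest had a median of 88.1%. In the next 500 peaks, which the width rule did not take, 3 peaks of epithelial factors had a median cover of 92.8% and 6 peaks of RNA-binding genes 73.1%, with ranges of 72.5 to 100% and 35.4 to 100% that overlap.

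**Figure D3:**
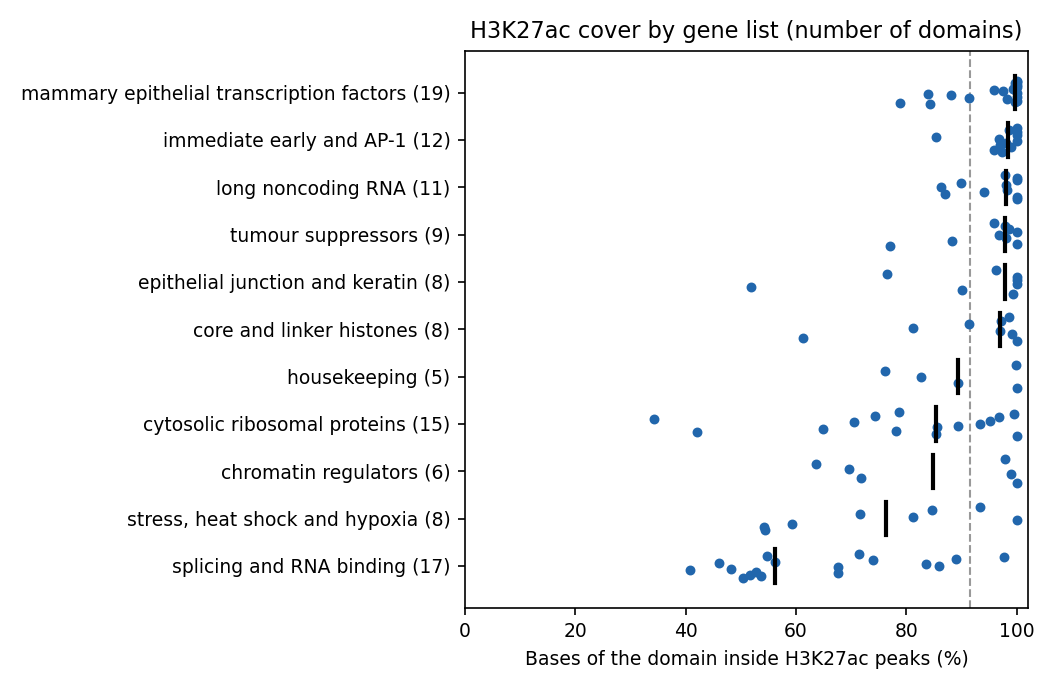
Share of the bases of a domain inside H3K27ac peaks (%, horizontal axis) for the domains that hold a gene of each list (rows, with the number of domains); points are domains, black bars list medians, and the dashed line is the median of 91.5% over all 500 domains. List medians run from 99.6% for mammary epithelial transcription factors to 56.2% for splicing and RNA binding genes.

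Immediate early and AP-1 genes, whose transcription responds within minutes to growth signals, had 12 of 32 (37.5%) in domains, against 3.06% of all coding genes. The median cover of these domains was 98.4% and none was below 75%. MYC had 11045 bp, ZFP36L2, an mRNA decay factor gene, 10753 bp and JUNB 9830 bp, each 100% covered, and KLF6, BTG1, FOSL2, IER2 and JUN lay between 96.9% and 98.9%. ZFP36, another decay factor gene, was the lowest at 85.4%. Tumour suppressor genes had 9 of 46 (19.6%) in domains with a median cover of 97.9%. ARID1A and ARID1B, subunits of the same chromatin remodeller, had 12556 and 7897 bp with 97.9% and 100% cover, and PBRM1, a subunit gene of a related remodeller, 7748 bp with 77.0%. Of the 9 tumour suppressor genes in domains, RUNX1, KLF6, BTG1, ZFP36L1 and ZFP36L2 are also members of the lists above. Housekeeping genes had 5 of 23 (21.7%) in domains, a share like that of tumour suppressors, with a median cover of 89.3%. Another 5 (21.7%) of the housekeeping genes had a start in the next widest peaks.

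Chromatin regulators had 6 of 57 (10.5%) in domains, beside 3.06% of all coding genes. ARID1A, ARID1B and CHD2 were covered by 97.9% or more. BRD2, a bromodomain gene, had 12274 bp with 63.7%, RAD21, a cohesin subunit gene, 12015 bp with 69.6% and KDM5B, an H3K4 demethylase gene, 11132 bp with 71.8%. Epithelial junction and keratin genes had 8 of 45 (17.8%) in domains, with a median cover of 97.8%. KRT19 (10697 bp), KRT7 (8473 bp) and the desmocollin gene DSC2 (8356 bp) were 100% covered, CLDN4 99.3% and KRT5 90.2%. The splicing regulator gene ESRP1 had 10946 bp with 76.4% and CLDN1 8215 bp with 51.8%. Stress, heat shock and hypoxia genes had 9 of 42 (21.4%) in 8 domains with a median of 76.4%. The chaperonin genes HSPD1 and HSPE1 share 1 domain of 10054 bp with 71.5% cover, and the glucose transporter gene SLC2A1 and ADM, encoding adrenomedullin, had 7897 and 7654 bp with 54.1% and 54.4%, whose H3K27ac peaks scored at most 272.9 and 153.06.

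Smaller counts came from signalling lists, beside 3.06% of all coding genes. Notch genes had 2 of 32 (6.25%) in domains, the receptor gene NOTCH1 with 12380 bp and 100% cover and HEY2 as above. Cell cycle regulators had 4 of 28 (14.3%): CDK6 with 8689 bp and 100%, CDKN1B with 8084 bp and 95.3%, CCND1 with 10237 bp and 91.9%, and CCNL1, a cyclin of splicing, with 9462 bp and 56.4%. Growth factor receptor and ligand genes had 3 of 46 (6.52%), EFNA1, EPHB3 and TGFB2. Feedback regulators had 4 of 38 (10.5%), of which TRIB1 was 100% covered and SMAD6, an inhibitor of BMP signals, 44.4%. Neural and muscle genes had 1 of 28 (3.57%, near the share of all coding genes), the homeobox gene DLX2 with 10449 bp and 85.0% cover. None of 12 fibroblast, 12 macrophage, 12 lymphocyte and 10 endothelial genes had a start in a domain, although 3, 3, 1 and 4 of them had one in some H3K4me3 peak.

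The counts of families defined by gene symbol are read against the 3.06% of all coding genes. Of 81 cytosolic ribosomal protein genes 15 (18.5%) had a start in a domain, with a median cover of 85.5% and a range that took in RPL14 with 9417 bp and 34.2% and RPL3 with 7417 bp and 100%. RPL23A (11958 bp), RPL8 (9605 bp), RPL13 (8477 bp) and RPS18 (8272 bp) were covered by 99.4%, 96.9%, 95.2% and 93.4%, and RPS15A (7614 bp) by 42.0%. Of 79 histone genes 21 (26.6%) lay in 8 domains with a median of 97.1%. The widest of the 8 domains, 12962 bp on chromosome 6, held H2AC13, H2AC14, H2BC13, H2BC14 and H3C10, the most coding starts of any domain, and was 98.6% covered. H3-3A, the gene of a histone variant that is not tied to replication, stood apart from the clusters with 7592 bp and 61.3%. Near-identical histone genes share reads, and the treatment of such reads was not given in the sources. Of 574 zinc finger genes 8 (1.39%) had a start in a domain and of 372 solute carriers 10 (2.69%), shares below or near that of all coding genes, and of 12 T-box genes none and of 391 olfactory receptor genes none.

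In domains under 75% cover the bare part lay mostly downstream of the gene start, while over all domains it was spread much as the bases were. This was measured in 257 domains whose coding starts belong to 1 gene of known strand, from the most upstream start in the domain, which lengthens the downstream side by construction. The domain reached a median of 2066 bp upstream (quartiles 1463 and 2852) and 6643 bp downstream (5743 and 8244), against 1846 and 4895 bp in 275 of the next 500 peaks. The downstream side was the longer in 235 of 257 domains (91.4%), against 93.5% of the 275. The medians of domains and of the next 500 were further apart downstream than upstream. H3K27ac covered 88.1% of upstream and 86.7% of downstream bases in domains, and 82.1% and 77.9% in the next 500. The downstream side held 76.4% of the bare bases of the 257 domains and 74.4% of all their bases. The longest bare stretch was at the downstream end in 94 domains, at the upstream end in 48 and between H3K27ac peaks in 73, and 42 had none. Among the 64 of these domains with cover under 75%, it was at the downstream end in 46, between peaks in 17 and at the upstream end in 1, and the downstream side held 82.0% of their bare bases and 72.6% of all their bases.

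At 4 kb downstream of the start 94.9% of the 257 genes lay in H3K4me3 and 75.5% in H3K27ac, and in the next 500 the shares were 82.9% and 54.6%. In the 64 domains under 75% cover they were 93.8% and 34.4%. At 10 kb downstream the order of the marks was the other way round, with 21.8% of the 257 genes in H3K4me3 and 38.5% in H3K27ac, where most domains have ended. H3K4me3 width chose these domains and H3K27ac cover chose the 64, so the heights of these curves describe the choice and are not tests.

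**Figure D4:**
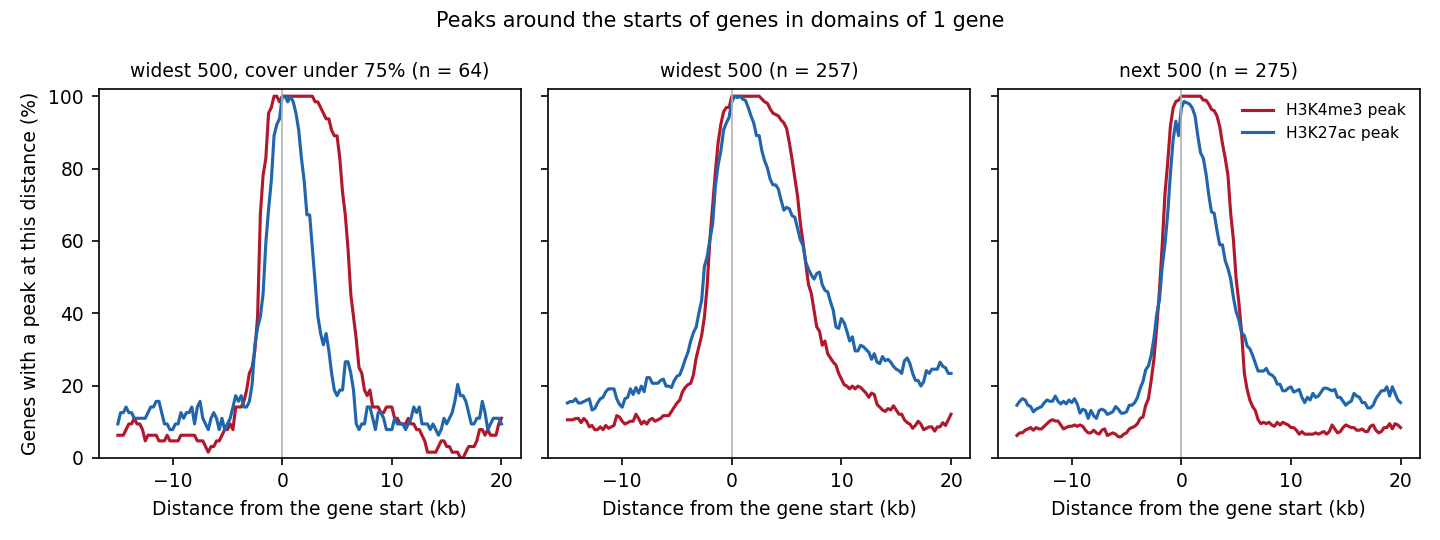
Share of genes (%, vertical axis) with an H3K4me3 peak (red) or an H3K27ac peak (blue) at each distance from the gene start (kb, horizontal axis; positive is downstream), for the 64 single-gene domains under 75% cover, all 257 single-gene domains and 275 of the next 500 peaks. At 4 kb downstream the marks stand at 93.8 and 34.4% in the first panel, 94.9 and 75.5% in the second and 82.9 and 54.6% in the third.

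The domains with the least H3K27ac were of several kinds. The lowest cover, 12.2%, was at 9570 bp on chromosome 14 (chr14:44959118-44968687) over the genes KLHL28 and TOGARAM1, with 2 weak H3K27ac peaks that scored at most 47.97. The next, 19.9%, was at 7821 bp on chromosome 6 (chr6:26325701-26333521) that held 4 tRNA genes and no coding start. URI1 had 8122 bp with 31.1% cover, the pair SLU7, a splicing factor gene, and PTTG1, encoding securin, 10070 bp with 33.7%, and TPRN, TMEM203 and NDOR1 together 10239 bp with 37.2%. FGF9, a growth factor gene, had 7403 bp with 38.4%, ZMYM2 8320 bp with 38.6%, YBX1, an RNA-binding protein gene, 7432 bp with 39.5%, MSMO1, a cholesterol synthesis gene, 8080 bp with 40.8% and LYN, a SRC family kinase gene, 7494 bp with 41.2%. With RPL14 and NCL these were the 12 lowest. At NCL and ZMYM2 the H3K27ac peak scored 3100, and at FGF9 and MSMO1 at most 167.33 and 237.06, so low cover went with both strong and weak H3K27ac.

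The domains split among the most H3K27ac peaks ranged widely in cover. VAV3, a guanine exchange factor gene, had 8884 bp with 7 H3K27ac peaks and 91.0% cover. Another 7 domains had 5 peaks each: besides HNRNPA2B1, TRA2B and ADM above these held HES7 and ALOXE3 with 5 tRNA genes (11515 bp, 42.7%), PCGF2 and PSMB3 (10484 bp, 74.9%), TRAF7 and RAB26 (7835 bp, 85.6%) and a noncoding gene inside FDFT1 (8497 bp, 70.5%). The domains with the most coding starts after the histone domain were those of RPL23A, RAB34, TLCD1 and NEK8 (11958 bp, 99.4%) and, among those with 3 coding starts, DPM3, EFNA1 and SLC50A1 (18566 bp, 94.96%), TOR1AIP1, TOR1AIP2 and LOC139427322 (10875 bp, 50.4%), the TPRN domain, and HSPD1, HSPE1 and HSPE1-MOB4.

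Domains without a coding start were covered more fully than those with one, an order also seen in other H3K4me3 peaks. The median cover of the 52 was 99.99% (98.0 to 100; quartiles 96.0 and 100) and that of the 448 was 89.8% (86.6 to 92.0), and 5 of the 52 were below 75%, against 132 of the 448. Their widths were alike, with medians of 8611.5 and 8677.5 bp. Cover of 99% or more was reached by 59.6% of the 52 and 21.9% of the 448. Outside the domains, 23.9% of all other H3K4me3 peaks reached it, against 4.42% of those with a coding start. In the next widest peaks these shares were 10.8% and 8.78%. The difference is therefore not particular to broad domains. A deposited H3K4me3 score of 3100 or above was reached by 42 of the 52 and 447 of the 448. The lowest scores were those of the domain inside NFE2L2, 69.24, and of the one beside BARX2, 284.24, both of which lay whole in H3K27ac peaks that scored 3100. A start that the annotation used here does not list would not be seen, which bears most on chromosome 8. The widest was the domain inside LMNA, and the next 6 by width held long noncoding RNA genes: NEAT1 with 12847 bp (chr11:65418196-65431042) and 97.9% cover, MALAT1 with 12361 bp (chr11:65497679-65510039) and 99.98%, LINC01089 with 11839 bp and 99.3%, CHASERR, upstream of CHD2, with 11575 bp and 94.8%, PRR34-AS1 with 11497 bp and 100%, and PVT1, in the MYC region, with 11299 bp and 100%. Of the 24 domains with no annotated start at all, 18 lay inside a coding gene and 6 outside. Those inside NFE2L2 (11098 bp), CD2AP (10105 bp), DAZAP1 (9834 bp), PLEC (8637 bp), SF3B3 (8503 bp) and PDXK (8453 bp) were each 100% covered, and so were those nearest to EN1, TUT7, BARX2, ATL2, VXN and TRPS1, of which EN1, BARX2, ATL2, TUT7 and TRPS1 also have a domain at their own start. Inside USP54, by contrast, 11152 bp were 70.3% covered and inside RGS20 7848 bp 50.2%. Some of the fully covered ones lay close to a domain at the start of the same gene. The gap was 61 bp at PDXK, 3475 bp at NFE2L2, 5573 bp at EN1 and 9201 bp at CD2AP.

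Noncoding genes were present in 228 domains in all. Long noncoding RNA genes numbered 195 of 17795 (1.1%), in 178 domains with a median cover of 92.7%. Of 34 long noncoding RNA genes on a list of well known ones 11 were in domains, with a median of 98.0% and none below 75%, among them the snoRNA host genes SNHG1, SNHG3, SNHG6, SNHG15, GAS5 and ZFAS1 (86.4 to 98.2%), HOTAIR (7792 bp) and MIR23AHG (7636 bp), both 100% covered. Genes of snoRNAs, which guide the modification of ribosomal RNA and sit in introns of host genes, numbered 72 of 1150 (6.26%) in only 26 domains, so the count rests on few hosts: GAS5 had 11 and SNHG1 9. The median cover of these 26 domains was 85.6%. Genes of tRNAs numbered 16 of 439 (3.64%) in 6 domains, of which 3 were below 75% cover.

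MicroRNA genes numbered 30 of 1793 (1.67%), in 28 domains with a median cover of 92.0%, of which 6 were below 75%. Mature sequences of RefSeq on GRCh38.p14 were matched for 25 of the 30. Those of the better known ones are given, with bases 2 to 8, the seed by which a microRNA pairs with its targets, in capitals.
hsa-miR-196a-5p, chr12:53991762-53991783, plus strand: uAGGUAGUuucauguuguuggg
hsa-miR-15b-5p, chr3:160404607-160404628, plus strand: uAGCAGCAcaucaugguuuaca
hsa-miR-16-5p, chr3:160404754-160404775, plus strand: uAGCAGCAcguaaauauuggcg
hsa-miR-191-5p, chr3:49020672-49020694, minus strand: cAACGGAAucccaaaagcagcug
hsa-miR-21-5p, chr17:59841273-59841294, plus strand: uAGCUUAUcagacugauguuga

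The domain of 17795 bp over HOXC9 and HOXC10 that holds MIR196A2 was 99.99% covered, and miR-196a is known to act on HOX transcripts. MIR21, known from many tumours, lay in 7808 bp on chromosome 17 (chr17:59836214-59844021) with 100% cover and no coding start. MIR15B and MIR16-2, whose mature 5p forms share the seed AGCAGCA, lay in 8275 bp at SMC4 and IFT80 with 81.5% cover. MIR191 and MIR425 lay in 8038 bp at DALRD3, NDUFAF3 and IMPDH2 with 98.96% cover. Among 33 mature sequences of these genes there were 32 different seeds, the shared one being that of miR-15b-5p and miR-16-5p. A microRNA gene inside a domain may be read from the host's start, which peak lists do not show.

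Domains were unevenly spread over the chromosomes. Chromosome 8 held 54 of them, 4.88% of its 1107 H3K4me3 peaks (3.69 to 6.32), and the other chromosomes ranged from 0.728% of the peaks of chromosome 22 to 2.38% of those of chromosome 21 (1.09 to 4.46), which overlaps the interval of chromosome 8. The next 500 widest peaks had 49 on chromosome 8. The median cover of the 54 was 87.5%, and 7 chromosomes had lower medians, from 66.3% on chromosome 4 and 74.0% on chromosome 10 to 87.4% on chromosome 17.

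**Figure D5:**
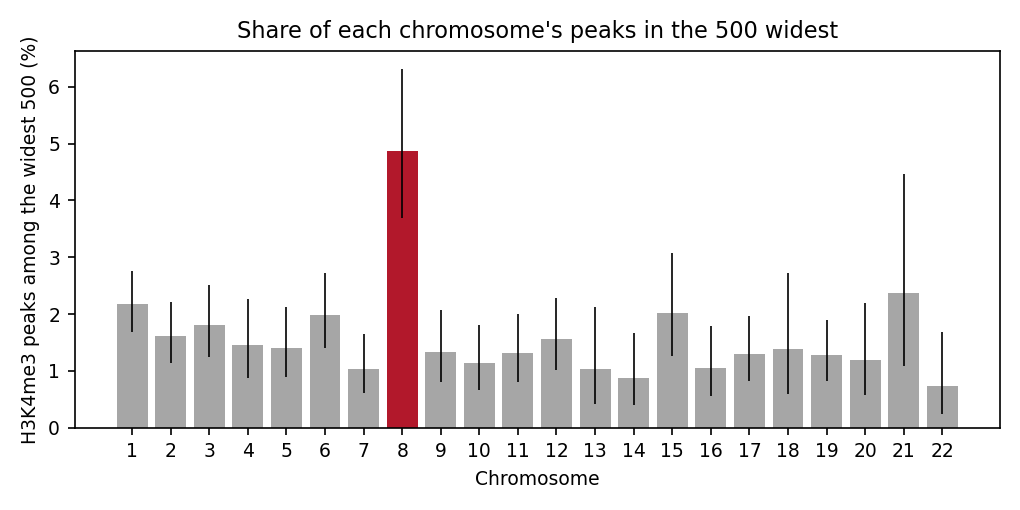
Share of the H3K4me3 peaks of each chromosome that belong to the 500 widest (%, vertical axis), with exact 95% binomial intervals as lines. Chromosome 8 (red) stands at 4.88%, and the other chromosomes lie between 0.728 and 2.38%.

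Some domains lay in runs. Less than 100 kb separated the domains of 47 runs with 107 domains, and 9 runs with 31 domains had 3 or more members. A run of 5 on chromosome 8 (chr8:66426723-66670996) held ADHFE1, RRS1, MYBL1, VCPIP1 and C8orf44-SGK3, with cover from 54.1% to 100%. A run of 5 on chromosome 6 (chr6:26120927-26333521) held 4 histone domains and the tRNA domain, with 19.9% to 100%, and a further histone run on that chromosome had 3 members with 96.9% to 98.6%. On chromosome 1 EFNA1, EFNA3 and ZBTB7B formed a run of 3 with 94.96% to 100%, and ARHGEF2, MEX3A and LMNA another with 99.7% to 100%. NEAT1, MALAT1 and the genes EHBP1L1, FAM89B and ZNRD2 formed a run on chromosome 11 (75.01% to 99.98%), PLEC, PARP10, EXOSC4 and GPAA1 one on chromosome 8 (97.2% to 100%), SOD2, WTAP, MRPL18 and TCP1 one on chromosome 6 (69.9% to 86.6%) and HMGCS1, CCL28 and TMEM267 one on chromosome 5 (77.1% to 98.1%).

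The boundary of 500 fell on a smooth scale of widths. The last 5 members were the domains at HNRNPH3 and PBLD (7409 bp), FGF9 (7403 bp), TLE3 (7403 bp), ATP2A2 (7402 bp) and inside ATAD2 (7394 bp), with 55.1%, 38.4%, 97.5%, 64.1% and 98.4% cover. The first 5 peaks outside were at TCF7L2 (7393 bp), HMOX2 and NMRAL1 (7391 bp), SUB1 (7390 bp), PLXDC2 (7388 bp) and CHRAC1 (7381 bp), with 99.6%, 79.1%, 82.1%, 92.6% and 92.1%. Membership also rests on how the caller joined peaks, since 119 domains had another H3K4me3 peak less than 500 bp from an edge. With such neighbours joined before ranking, 379 of the 500 domains lay inside the 500 widest joined peaks.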

How the data were processed

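H3K4me3, H3K27ac and input chromatin of HCC1599 cells were sequenced, 1 library each. Per the labels' protocols, cross-linked chromatin was cut by sonication and micrococcal nuclease, which can shape where peaks end or break. The submitters' processing notes name Bowtie2, MACS 1.4 and hg38; their parameters are not given in the sources used here. The authors deposited a peak list per mark (32045 and 72895 peaks) with positions in bp and a score per peak whose unit is not stated; this deposited score describes and filters peaks within a list only.

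Peaks of chromosomes 1 to 22 were used (31074 and 71043) and positions are counted from 1. Cover is the share of a domain's bases inside H3K27ac peaks. Starts are every RefSeq GRCh38.p14 promoter entry of 15100 coding genes; 4022 without an entry, 714 on chromosome 8, used both annotated ends. Some sequence entries were not used here. Genes named were the domains of width rank 16 to 45, list members by width, the least covered, most divided, most gene-rich and noncoding domains, runs and boundary members; further list members, domains away from starts, snoRNA hosts, promoters and microRNAs shown were chosen after their values were seen. The members and lists were chosen with earlier results of these data known. Overlaps were checked against bedtools 2.31.1 (0 differences) and tested on simulated data. Python 3.11.15, numpy 2.4.6, pandas 2.3.3, scipy 1.17.1 and matplotlib 3.10.9 were used. Alternatives were an H3K27ac score of at least 100, joining under 500 bp, 250 or 1000 peaks, 1 domain per 1 Mb and other gene definitions; leaving out chromosome 8 was chosen after seeing the data.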

Additional observations from a re-analysis of the deposited data

How the results depend on the processing

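With H3K27ac peaks scoring at least 100, the bases covered were 82.1%, the median cover 87.8% and the domains covered by at least 50% were 89.4%, against 85.7%, 91.5% and 94.4%. The 250 widest peaks had 89.1% of bases covered, a median of 94.9% and 293 coding genes, and the 1000 widest 81.9%, 85.3% and 1172, by the number of peaks taken. A coding gene was at 82.8% of domains by either annotated end and at 96.0% by any overlap of its span, against 89.6% by start. The difference in median cover, domains minus the next 500, was 11.4 percentage points and lay between 10.4 (coding starts only) and 15.2 (H3K4me3 peaks joined) under its alternatives. In the other alternatives run for each value, the median cover was 91.6 to 92.7%, the bases covered 86.1 to 86.5%, the domains covered by at least 50% 94.0 to 94.8%, the domains with a coding start 90.6 to 91.8% and the coding genes 566 to 630. No paired analysis was possible because each mark had 1 library and no result came from a test. Depth is not in the files.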
